A study of Mus musculus with 4 samples.

Results

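Insulin signalling genes of subcutaneous white fat were described here through the open chromatin linked to 4 of them. The genes were Irs1, Akt1, Akt2 and Igf2r, taken by name from a deposited table of 11993 genes, and 7 of the 12477 merged open regions of the series were linked to them. The assay was ATAC-seq, which uses the Tn5 transposase to insert adapters where DNA is accessible, on nuclei of frozen, ground subcutaneous adipose tissue. There were 4 libraries, a pair per sex, all of the WT genotype and with no treatment named. No source used here gives strain or age. Nor was it stated that the pair of a sex came from different mice, so each p-value measures only the spread between these samples, which may be technical.

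Insulin and the insulin-like growth factors bind receptor tyrosine kinases, which phosphorylate insulin receptor substrates such as IRS1. These recruit PI3-kinase, whose lipid product brings the AKT kinases to the membrane, and in adipocytes AKT2 is the isoform best known for moving the glucose transporter GLUT4 to the cell surface, while AKT1 is more often linked to growth. IGF2R, the cation-independent mannose 6-phosphate receptor, does not signal as a kinase, and it clears IGF2 and carries lysosomal enzymes. In the mouse Igf2r is imprinted, and the antisense noncoding RNA Airn starts inside it and silences Igf2r on the paternal allele.

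Only Irs1 and Akt2 had a linked region at their own start. For Irs1 (GeneID 16367, chromosome 1, 82233105 to 82291439, minus strand) these were chr1:82291375-82291650, which held 211 bases before the start and 65 from it on, and chr1:82291180-82291269, inside the gene. The third Irs1 region, chr1:82283296-82283507, lay inside the gene with its centre 8038 bp from the start. All 3 were linked also to the predicted gene Gm19537, which lies within Irs1. For Akt2 (GeneID 11652, chromosome 7, 27591560 to 27639453, plus strand) the only region was chr7:27591516-27591608, which held 36 bases before the RefSeq start (27591552) and 57 from it on. The table linked it also to 2310022A10Rik, an uncharacterised gene that ends upstream of Akt2. All positions are in mm10, counted from 1.

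The regions linked to Akt1 and Igf2r did not lie at the starts of these genes. For Akt1 (GeneID 11651, chromosome 12, 112653821 to 112674276, minus strand) the larger region, chr12:112644494-112645060, was downstream of the gene, 29499 bp from the Akt1 start. It lay over the start of Siva1, a gene of apoptosis signalling, and was linked also to Adssl1, an adenylosuccinate synthase. The smaller region, chr12:112667762-112667896, lay inside Akt1, 6447 bp from its start, and was the only 1 of the 7 linked to no other gene. For Igf2r (GeneID 16004, chromosome 17, 12682406 to 12769706, minus strand) the only region was chr17:12741230-12741322, inside the gene, 28430 bp from its start. This region covered the start of Airn, with 81 bases before that start and 12 from it on, and the table gave Igf2r and Airn the same values. No merged region overlapped the RefSeq promoter windows of Akt1 (2 windows) or Igf2r (1 window). Of protein-coding genes, 35.9% had a promoter window that overlapped a merged region.

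**Figure D1:**
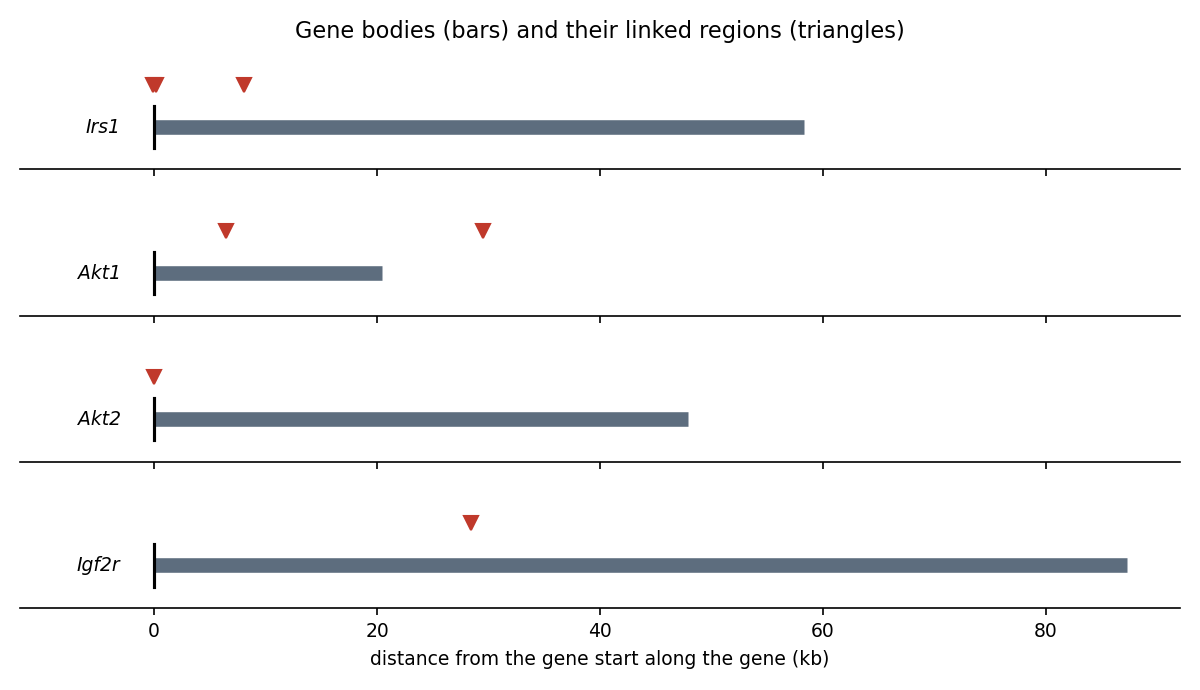
Each bar is a gene body drawn to scale from its start (black tick at 0), and each triangle is the centre of a linked merged region, against the distance from the gene start in kb. Irs1 and Akt2 have regions at the start, whereas the Igf2r region lies 28430 bp inside the gene and the farther Akt1 region lies past the end of the gene.

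Merged regions join the peak intervals of the libraries and do not show which single bases are open or closed. The sequences before the starts that the linked regions touch are given here with the merged region marked. They come from RefSeq (GRCm38.p6, the assembly of mm10), are written 5′ to 3′ on the strand of the gene, and have the bases inside the merged region in capitals. Those of Irs1 (chr1:82291440-82291689, minus), Akt2 (chr7:27591302-27591551, plus) and Siva1 (chr12:112644578-112644827, plus) are the 250 bases before the start. That of Airn (chr17:12741061-12741360, plus) runs 50 bases further and holds the whole region that stands for Igf2r in the table.
Irs1: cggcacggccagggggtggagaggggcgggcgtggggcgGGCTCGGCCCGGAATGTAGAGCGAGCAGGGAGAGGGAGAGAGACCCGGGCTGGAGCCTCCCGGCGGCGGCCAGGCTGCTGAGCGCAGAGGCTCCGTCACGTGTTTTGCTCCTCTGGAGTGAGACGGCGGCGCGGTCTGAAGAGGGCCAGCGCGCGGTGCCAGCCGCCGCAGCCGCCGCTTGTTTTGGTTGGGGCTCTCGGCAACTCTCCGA
Akt2: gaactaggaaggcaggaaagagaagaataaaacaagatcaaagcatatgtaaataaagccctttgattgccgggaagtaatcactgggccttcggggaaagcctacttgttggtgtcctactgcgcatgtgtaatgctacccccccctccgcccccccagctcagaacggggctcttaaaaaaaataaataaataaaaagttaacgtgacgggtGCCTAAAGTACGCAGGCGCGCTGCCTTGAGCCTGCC
Siva1: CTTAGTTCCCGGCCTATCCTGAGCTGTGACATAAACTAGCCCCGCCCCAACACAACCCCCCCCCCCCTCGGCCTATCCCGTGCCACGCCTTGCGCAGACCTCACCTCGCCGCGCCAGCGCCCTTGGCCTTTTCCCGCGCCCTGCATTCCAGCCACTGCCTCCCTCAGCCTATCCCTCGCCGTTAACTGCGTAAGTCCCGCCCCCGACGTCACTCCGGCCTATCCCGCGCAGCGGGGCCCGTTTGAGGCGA
Airn: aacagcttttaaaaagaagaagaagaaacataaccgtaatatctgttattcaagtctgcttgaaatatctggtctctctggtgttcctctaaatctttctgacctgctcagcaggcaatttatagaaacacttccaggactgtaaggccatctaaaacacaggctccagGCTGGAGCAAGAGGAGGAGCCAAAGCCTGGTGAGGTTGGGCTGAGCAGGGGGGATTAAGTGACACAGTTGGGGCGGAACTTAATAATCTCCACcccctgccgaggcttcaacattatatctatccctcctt

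These windows differed in base composition. Within the 250 bases before the start, G and C made up 72.4% for Irs1 and 67.6% for Siva1, with 28 and 24 CG dinucleotides, against 48.8% and 10 for Akt2 and 45.6% and 2 for Airn. The medians over 32851 RefSeq windows were 52.4% and 6. Searched on both strands, the GC box GGGCGG was found in all 4 windows (2 matches for Irs1 and Siva1, 1 for Akt2 and Airn) and in 32.7% of all windows. The E-box CACGTG was found in that of Irs1 only (1 match, 6% of all windows), and TATAAA in that of Airn only (1 match, 12.4%). TGACG, the shorter form of the cAMP response element, was found 1 time in Irs1, Akt2 and Siva1 (17.8%), and its full form TGACGTCA, which holds TGACG, in none (1.5%). CCAAT was found in none of the 4 (33.8%). By the capitals above, the GC box and TGACG of Akt2 and the TATAAA of Airn lay outside the merged region. The Irs1 GC boxes lay outside it or across its edge, and the other matches lay inside. A match is a run of letters and does not show that a factor binds.

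Peaks at the 7 regions were called almost wholly in the females. A peak of the library overlapped the region in 10 of 14 region and library pairs of the females and in 2 of 14 of the males, and both male peaks were those at the Siva1 start. Outside that region the males had 0 peaks and the females 8. By gene, Irs1 and Akt2 had peaks in both females and neither male, a pattern shown by 11.7% of all genes in the table. Akt1 had peaks in all 4 libraries (35.9% of genes), through the Siva1 start, and Igf2r in female 2 only (4.34% of genes). Over the whole series the libraries held 10238, 8022, 5484 and 4049 peak intervals, in the order female 1, female 2, male 1 and male 2. Of 5899 regions that were the only region of a gene, 5051, 4105, 3194 and 2364 had a peak, in the same order. The series as a whole thus had fewer calls in males.

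The values below are peak heights, the greatest number of overlapping tags in a region, multiplied by the authors by a factor per library and averaged over the regions of a gene. That factor was read from the data: 1 tag was worth 1.0 and 0.822 for females 1 and 2, and 0.707 and 0.734 for males 1 and 2. Heights are given in this scaled unit unless they are called tags before scaling. No source used here gives read totals, so the depth is unknown. Library medians over all genes were 38.0, 30.2, 24.0 and 14.7 in the same order, and male 2 stood apart with wider intervals (median 284 bp, against 160 to 171 bp). In bulk fat, fewer cells of a type and less accessibility per cell cannot be told apart.

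Irs1, a docking protein of the insulin receptor, was close to the library median in both females and well below it in both males. Female 1 had a height of 40.7 and female 2 of 32.9, against 13.9 for male 1 and 9.55 for male 2. The sexes did not overlap, and the gap between the lower female and the higher male was wider than either sex's own spread. Females averaged 36.8 ± 5.51 and males 11.7 ± 3.08 (SD, n = 2 each), a ratio of 3.14, and the log2 difference, male minus female on the log2(height + 9) scale, was -1.15 (SE 0.37, limma adjusted p = 0.0941). Divided by the median height of the library, Irs1 stood at 1.07 and 1.09 in the females and at 0.578 and 0.65 in the males. It was thus lower in both males also within each library's own scale, and before scaling the 3 regions together held 122, 120, 59 and 39 tags.

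The 3 Irs1 regions could be told apart in the females. At the inner region, 8038 bp from the start, the summits were 33.0 in female 1 and 32.1 in female 2, both called as peaks. At the start, female 1 had its peak in the upstream region (38.0) and female 2 in the region just inside the gene (42.7). The heights of the regions without a call follow from the mean over 3 regions if each called region has its summit height, which held for 98.7% and 98.1% of single-peak regions in these libraries. On that reckoning female 1 had 51.0 in the region just inside the gene, with no peak called, and female 2 had 23.8 in the upstream region. Both females would then have had their greatest height in the same region, 51 and 52 tags before scaling, although it was called in female 2 alone. The reckoned height in female 1 was at or above 99.8% of single regions without a call in that library and 70.1% of called ones. Such a height was thus rare without a call, and the value rests on the reckoning. In the males the regions could not be separated.

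Akt2, the AKT isoform of glucose uptake in fat, was lower in male 2 and close to the females in male 1. The females had heights of 42.0 (female 1) and 35.3 (female 2), and the males of 28.3 (male 1) and 6.61 (male 2). The sexes did not overlap, but the males lay farther from each other than male 1 lay from either female. The means were 38.7 ± 4.70 and 17.4 ± 15.3 (SD, n = 2 each), a ratio of 2.22, with -0.98 on the log2 scale (SE 0.38, limma adjusted p = 0.113). Before scaling, the region had 42, 43, 40 and 9 tags. Relative to the library median, male 1 (1.18) was level with the females (1.11 and 1.17), and male 2 (0.45) was not. Without male 2 the log2 difference was -0.35, and without male 1 it was -1.61.

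Igf2r, through the region at the Airn start, had the lowest heights of the 4 genes in male 2 and in female 1. Heights were 30 and 32.9 in females 1 and 2, and 16.3 and 3.67 in males 1 and 2. Both males were below both females, and male 2 had 5 tags before scaling, against 30, 40 and 23 in the order above for the other libraries. The means were 31.4 ± 2.04 and 9.96 ± 8.90 (SD, n = 2 each), a ratio of 3.16, with -1.18 on the log2 scale (SE 0.36, limma adjusted p = 0.0804). Without male 2 it was -0.68, and without male 1 it was -1.67. The height in female 1 stood at the 30.3rd percentile of the genes of that library, and that in male 2 at the 2.7th percentile. Since Airn starts there and the Igf2r promoter had no merged region, these heights belong to the site of the antisense RNA and do not measure the promoter of Igf2r.

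Akt1, the AKT isoform found in most tissues, had the greatest heights of the 4 genes in the deposited table, but most of that height came from the Siva1 start. The deposited means were 72.0 and 63.3 in females 1 and 2, and 42.1 and 15.8 in males 1 and 2. The sexes did not overlap, with means of 67.6 ± 6.15 and 28.9 ± 18.6 (SD, n = 2 each), a ratio of 2.34, with -1.11 on the log2 scale (SE 0.41, limma adjusted p = 0.109). Without male 2 the log2 difference was -0.58, and without male 1 it was -1.63. Siva1 is linked to the downstream region alone, so its values separate the pair of Akt1 regions. The Siva1 start had 105, 98.6, 62.9 and 23.5, at the 99.5th, 99.9th, 99.6th and 83.3rd percentile of genes in these libraries. The region inside Akt1 had 39, 27.9, 21.2 and 8.08, or 39, 34, 30 and 11 tags before scaling. It was again lower in both males, with -0.89 on the log2 scale (SE 0.37, limma adjusted p = 0.126) in place of -1.11 when it stood for Akt1 in the test, an alternative chosen after seeing the data.

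**Figure D2:**
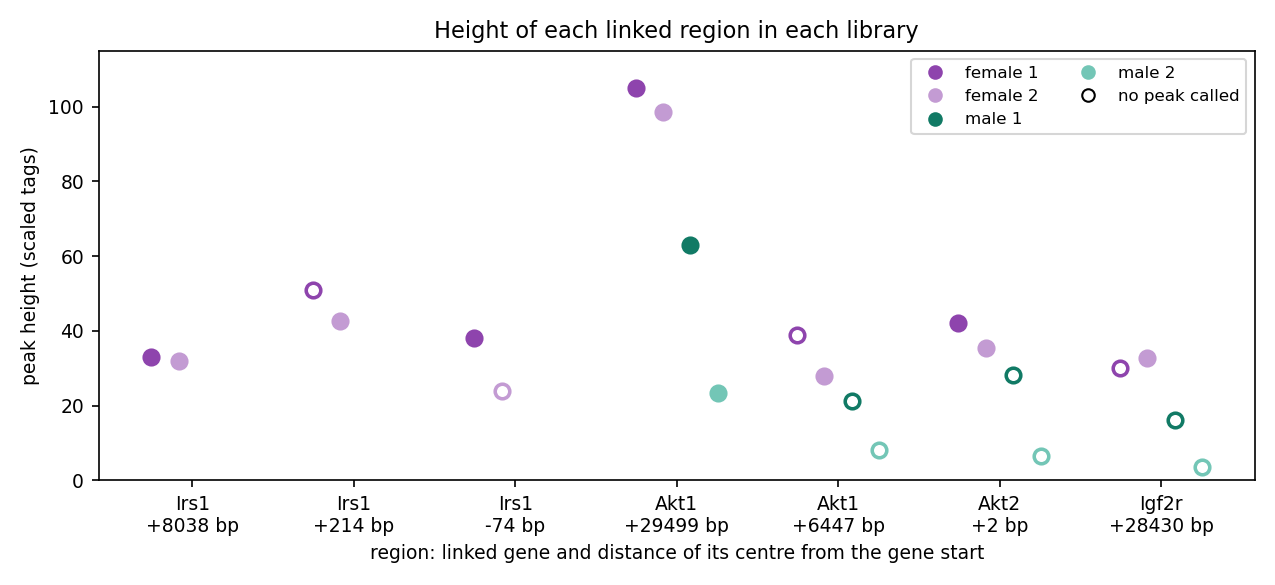
Peak height in scaled tags (y axis) of each of the 7 regions in each library, where filled points mark a called peak and open points none; regions are named by their gene and the distance of their centre from its start. Males have no point at the Irs1 regions because their heights could not be separated, and the Siva1 start region (Akt1, +29499 bp) is above the region inside Akt1 in every library.

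A missing peak call at these genes did not always mean a low height. In male 1, Akt2 had no peak at a height of 28.3, which was at or above 40.9% of the single regions called as peaks in that library and 93.7% of those without a call. In female 1, the region inside Akt1 had no peak at 39, at or above 47.5% of called regions, while in female 2 it was called at 27.9. The Airn start had no peak in female 1 at 30 and was called in female 2 at 32.9. In male 1 the Airn start had no peak at 16.3, at or above 4.3% of called regions and 49.7% of those without a call. In male 2 the Akt2 height of 6.61 was at or above 0.1% of called regions and 23.2% of those without a call, and the Airn start at 3.67 was at or above 0% and 7.1%. Height in male 2 was thus low at both genes by either measure, whereas in male 1 the uncalled Akt2 height was one at which many other regions were called and that of the Airn start was not.

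**Figure D3:**
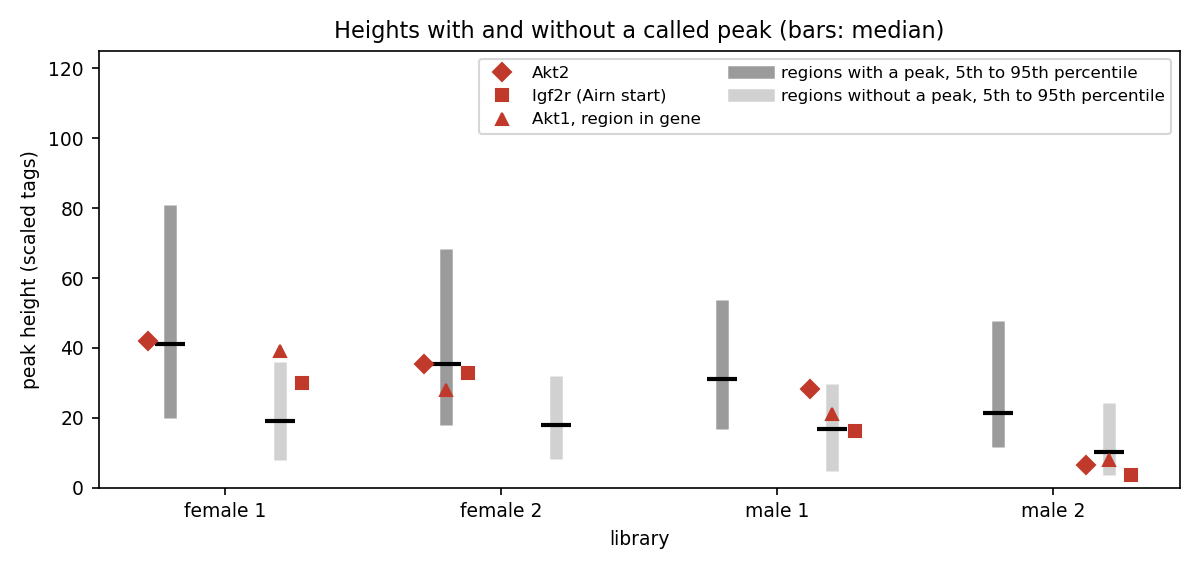
Grey bars give the 5th to 95th percentile of heights (scaled tags, y axis) of regions that are the only region of a gene, split by library and by whether a peak was called, with black marks at the medians; red symbols are Akt2, the region inside Akt1 and the Airn start that stands for Igf2r. Akt2 in male 1 (28.3) sits near the top of the uncalled range, and all 3 symbols of male 2 lie below its median for called regions (21.3).

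None of the 4 genes passed the test across all genes, although all were lower in males. With limma and Benjamini-Hochberg adjustment over all genes, 0 of the 4 had an adjusted p under 0.05, and 4 of 4 had an unadjusted p under 0.05. Of all genes, 0.592% were called lower in males, 0% higher, and 31.4% were lower at an unadjusted p under 0.05. Both males were below both females in 4 of 4 genes, an order that 76.4% of all genes showed on the deposited scale. The same held for 4 of 4 before library scaling (50.7% of genes), and for 3 of 4 with libraries centred on their medians (21.7% of genes). Akt2 was the exception, through male 1.

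As the median of all genes was -0.63, differences were also set against it. Relative to that median the 4 genes lay at -0.55 (Igf2r), -0.52 (Irs1), -0.48 (Akt1) and -0.35 (Akt2), with 2.1%, 2.8%, 3.7% and 9.3% of genes at or below their difference. For Akt1 the region inside the gene alone gave -0.26, against -0.57 for the Siva1 start. Without male 2 the relative differences were -0.28 (Igf2r), -0.60 (Irs1), -0.19 (Akt1) and 0.05 (Akt2), so that of Akt2 turned sign. Without male 1 they were -0.81, -0.43, -0.76 and -0.74 in the same order. Irs1 moved least with the male left out.

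The calls moved for the series as a whole with these choices. With libraries centred on their medians none of the 4 passed (limma adjusted p from 0.609 to 0.7), and 2 of 4 were lower at an unadjusted p under 0.05, as were 3.64% of all genes. Without male 1 all 4 were called (limma adjusted p from 0.000482 to 0.00319), as were 53.3% of all genes. The male arm is then male 2 alone, which is assumed to vary like the females, whose spread is the only one left. None of the 4 was called without female 1 (0.158% of all genes), female 2 (0.534%) or male 2 (0%). With limma's variance trend left out Irs1 and Igf2r were called (0.0451 and 0.0435), as were 3.47% of all genes. A design of 2 against 2 cannot reach an exact permutation p below 0.33, so no p is given for a single gene outside the fit.

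**Figure D4:**
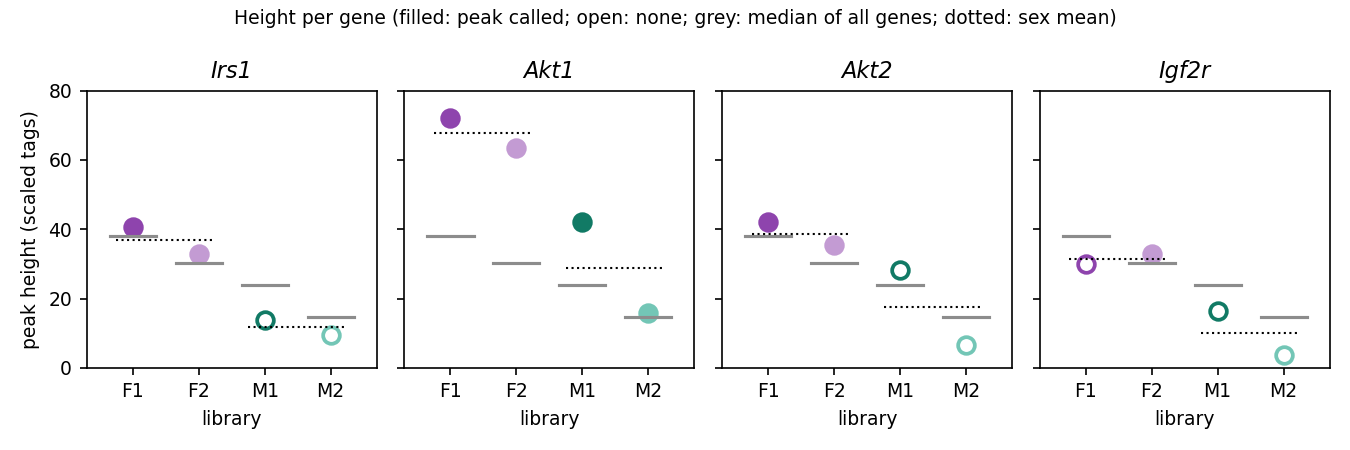
Peak height (scaled tags, y axis) of each gene in each library (F1 and F2 are the females, M1 and M2 the males), with the median of all genes in that library as a grey line and the mean of each sex dotted; filled points mark a linked peak. Irs1 lies below the grey line in both males (13.9 and 9.55), while Akt2 lies above it in male 1 (28.3) and below it in male 2 (6.61).

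Other genes of the pathway stood around the median of all genes. Of 79 listed insulin and IGF pathway genes, 59 were in the table, the 4 included. In the limma test 1 of them was called lower in males and 0 higher, as were 0.592% and 0% of all genes. An unadjusted p under 0.05 was found for 16 (27.1%), against 31.4% of all genes lower in males. Without the 4 genes this count was 12 of 55 (21.8%). The median difference of the 59 was 0.01 above that of all genes. In 47 of 59 (79.7%) both males were below both females, close to the 76.4% of all genes. The list was chosen with earlier results of these data known.

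Among ligands and receptors, 4 of 6 listed genes were measured and none was called. Insr, the insulin receptor, had 39 and 37.0 in the females and 28.3 and 49.6 in the males. It was the gene of this group whose sexes stood closest in mean, 38.0 ± 1.42 against 38.9 ± 15.1 (SD, n = 2 each), and its height in male 2 was at the 98.5th percentile of that library. Its log2 difference was -0.01, or 0.62 above the median of all genes, and its sign changed with the scaling. Igf1r, the IGF1 receptor, lay at 0.19 above the median, and Igf1, its ligand, at 0.86 from heights of 5.0 and 9.04 in females and 11.3 and 8.08 in males at a region 43024 bp inside the gene that it shared with Gm19894.

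Among adaptors and PI3-kinase genes, 13 of 16 were measured, with none called and a median of -0.02 relative to all genes. Irs1 was the lowest of the 13. Irs2, the other main substrate, had 45.0, 41.1, 25.4 and 19.8 in the order female 1, female 2, male 1 and male 2, from a region shared with 9530052E02Rik. It lay at -0.10 relative to the median. Divided by the library medians, Irs2 stood at 1.18, 1.36, 1.06 and 1.35 in the same order, so male 2 was level with female 2. Both substrates were lower in both males on the deposited scale, as were 76.4% of all genes. The relative difference of Irs1 was the larger, -0.52, but the difference between these genes was not tested. Sh2b2, an adaptor of the insulin receptor, lay at -0.38 from a region shared with Cux1. Pik3r1 and Pik3r2, regulatory subunits of PI3-kinase, lay at -0.17 and -0.27. Regions of Pik3r2 were shared with 2010320M18Rik, Ifi30, Mast3, Mpv17l2, Pde4c and Rab3a.

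The only gene of the list past the threshold was a kinase, Prkcz, which encodes an atypical protein kinase C and had a region just upstream of its start. Its heights were 25 and 16.4 in females against 3.53 and 1.47 in males, or 25, 20, 5 and 2 tags before scaling. On the log2 scale the difference was -1.36 (SE 0.34, limma adjusted p = 0.0283), which is -0.73 when the shift of all genes is taken off. The call was lost with median centring (adjusted p = 0.609), with quantile normalization (0.638), without female 1 (0.126), without male 2 (0.538) and before library scaling (0.0982). The difference in the last 3 was -1.15, -1.23 and -1.34, and with the centring and the quantile normalization -0.74 and -0.83. The filter on low means removed the gene. Of the other 13 listed kinases of this group 11 were measured and none was called. Rps6kb2, an S6 kinase, lay at -0.21 from regions shared with Cabp4, Carns1, Coro1b, Gpr152 and Ptprcap.

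None of the 18 measured targets and effectors and none of the 11 measured inhibitors was called. The medians of these groups were 0.03 and -0.06 relative to all genes. Slc2a4, the transporter GLUT4 that AKT2 brings to the surface, had 24.7, 21.4, 15.8 and 11.99, or 0.14 above the median, from regions shared with Ybx2. Foxo1, a transcription factor that AKT keeps out of the nucleus, had 45.0, 28.8, 27.6 and 22.8 (0.22 above), and Tbc1d4, the AKT substrate that holds GLUT4 inside the cell, had 36, 26.3, 17.7 and 18.4 (0.07 above). Its relative Tbc1d1 lay at -0.26, as did Foxo3. Among inhibitors, Phlpp2, a phosphatase of AKT, lay at -0.52 from a region shared with Ap1g1.

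**Figure D5:**
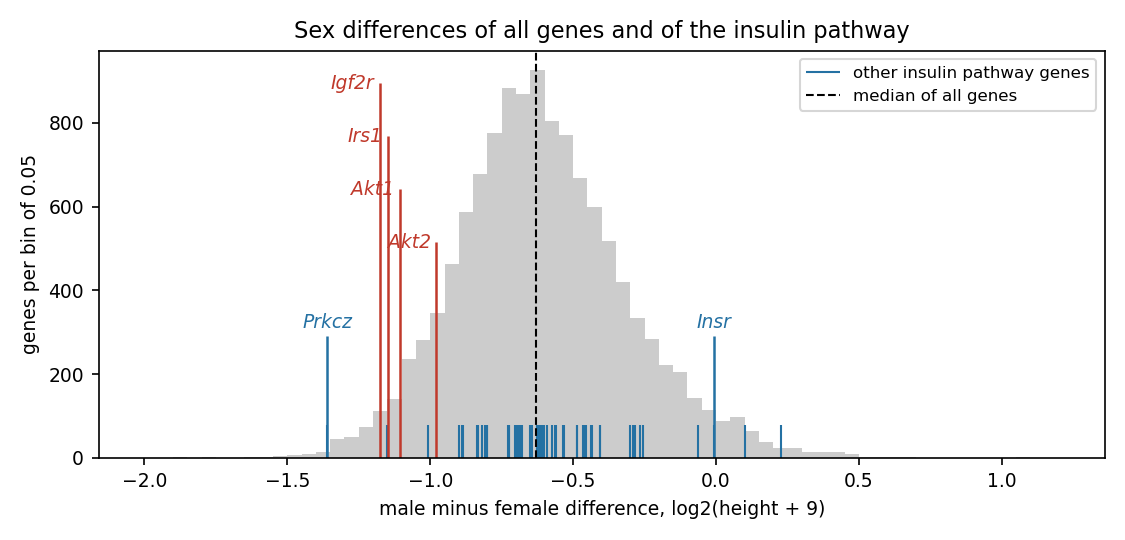
The grey histogram counts genes by their male minus female difference on the log2(height + 9) scale, with the median of all genes (-0.63) dashed; red lines are Igf2r, Irs1, Akt1 and Akt2 and blue ticks the other 55 measured pathway genes. The 4 genes lie between -1.18 and -0.98, while the blue ticks spread on both sides of the median from Prkcz (-1.36) to Igf1 (0.23).

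The genes nearest in height to each of the 4 were sought without genes of its regions, predicted genes, microRNA and small nucleolar RNA genes and pseudogenes. Those with the most similar heights were named by the Euclidean distance of log2(height + 9) over the 4 libraries. For Irs1 these were Tkt, a transketolase (38.0, 32.9, 14.4 and 9.06; distance 0.09), Klhl22 (0.11) and Tspan15 (0.14). For Akt1 they were Mrps26, a mitochondrial ribosomal protein, Trappc2l and Polk, a DNA polymerase (0.11 to 0.12), for Akt2 Klhl26, Tmem141 and Tmem206 (0.13 to 0.16), and for Igf2r Chpt1, a choline phosphotransferase, Mos and Brdt (0.16 to 0.18). Each gene named for Akt1 and Akt2 shared a region with another gene, such as Mrps26 with Ptpra. Those named for Irs1 and Igf2r did not. Among the 4 genes themselves Irs1 and Igf2r were the nearest pair (0.67), and Akt1 and Igf2r the farthest (1.92).

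Marker lists of the tissue and of other cell types had lower summed heights in both males. The medians of all genes also fell, from 38.0 and 30.2 in females to 24.0 and 14.7 in males. On the deposited scale 76.4% of all genes had both males below both females, and the sums below are not corrected for this shift. Of 14 adipocyte markers 10 were in the table, among them Pparg, Lipe and Cfd, while Adipoq, Plin1, Lep and Fabp4 had no linked region. Their summed height was 404 and 322 in females against 209 and 136 in males. The 3 measured of 9 mammary epithelial markers (Cldn3, St14 and Spint2) summed to 74.0 and 57.5 against 14.1 and 7.34, with Krt8, Krt18, Krt5, Krt14, Epcam and Elf5 not in the table. Sums for endothelium (3 of 5) were 76.0 and 54.7 against 33.2 and 26.8, for macrophages (2 of 5) 76.0 and 68.2 against 37.5 and 21.1, for B cells (2 of 4) 103 and 86.7 against 60.1 and 34.9, and for muscle (1 of 4) 70.0 and 50.1 against 24.0 and 17.6. The part of cell makeup in the differences of the 4 genes was not tested.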

How the data were processed

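Chromatin accessibility was measured in 4 libraries, 2 female and 2 male. Per the submitters' processing notes, BWA and MACS2 2.1.0 were used with mm10. No source used here states filters, duplicate removal or a Tn5 shift. Each library had its own peak calls, which were joined into merged regions, per the file headers. The deposited signal is tag coverage at the peak, scaled per library by the authors and averaged over a gene's regions. Heights of the 7852 genes with 1 region were whole multiples of 1 step per library, within 2% of a step, in 100% of cases.

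Here, heights above 0 in at least 2 libraries (all 11993 genes) were transformed as log2(height + 9), 9 being the 5th percentile rounded up. They were tested with limma 3.58.1 (R 4.3.3, variance trend, no block) and Benjamini-Hochberg adjustment over all genes, threshold 0.05. The test was tried on simulated heights with changes of equal size up and down and no shift common to all genes. As the data have such a shift, that trial says nothing on the test under it. Overlaps needed 1 bp. Python 3.11.15, numpy 2.4.6, pandas 2.3.3 and matplotlib 3.10.9 were used. Named were the 4 genes, genes sharing their regions, the 3 nearest in height to each, the 12 pathway genes with the smallest p and 7 fixed ones, not all of which are reported here; other names (Igf1, Igf1r, marker genes) were chosen after their values were seen. The genes and lists were chosen with earlier results of these data known. Pathway genes were matched by deposited or current symbol. No exon or intron annotation was used. Alternatives covered the pseudocount, filters, scaling, variance model, block, region sets and libraries left out.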

Additional observations from a re-analysis of the deposited data

How the results depend on the processing

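The differences of Irs1, Akt1, Akt2 and Igf2r were below 0 in all 57 alternatives run, 47 on the same side of the threshold as the test reported and 10 past it. Most of these could not turn the sign. The filters, replicate block, variance trend and region sets leave the difference unchanged. With both males below both females, neither a pseudocount nor a left-out library can reverse it. Only median centring, quantile normalization, unscaled heights and the region inside Akt1 could. With the replicate block all 4 passed, as did 57.7% of all genes (lower in males), at unchanged differences of -1.15, -1.11, -0.98 and -1.18 (limma adjusted p 0.000372, 0.00147, 0.00163 and 0.000305), and with no variance trend Irs1 (-1.15) and Igf2r (-1.18) did. With a library left out the differences ran from -1.30 to -0.99 for Irs1, -1.63 to -0.58 for Akt1, -1.61 to -0.35 for Akt2 and -1.67 to -0.68 for Igf2r. No label says that same-numbered libraries belong together. Their deviations had a correlation of 0.02 across genes, a measure that does not see a shift common to all genes. The median height was lower in replicate 2 of each sex (30.2 against 38.0 in females, 14.7 against 24.0 in males).

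Genes called numbered 71 in the test reported, 0 with the filter at the 25th percentile, with median centring and with quantile normalization (2736, 962 and 911 at an unadjusted p under 0.05), 6925 with the replicate block, 416 with no trend, 4 before library scaling (added after seeing the data), and 0 to 6419 with a library left out (0 without male 2, 19 without female 1, 6419 without male 1). In the same order, pathway genes called numbered 1, then 0, 0 and 0 (15, 6 and 6 unadjusted), 34, 4, 0 and 0 to 33. The cause was not tested.

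With the highest summit in place of the mean over regions, Irs1 had 42.7 in female 2, and Akt1 105 in female 1, 98.6 in female 2 and 62.9 in male 1, since the Siva1 start is then taken alone. Peaks covering at least 50% of a region gave the same 12 region and library pairs. Of 19 other named genes, Insr reversed to 0.003 with a pseudocount of 36, 0.61 with median centring, 0.51 with quantile normalization, 0.27 before scaling, and, with a library left out, ran from -0.334 (without male 2) to 0.32 (without male 1). Slc2a4, Foxo1 and Tbc1d4 reversed to 0.13, 0.21 and 0.057 with median centring and 0.12, 0.23 and 0.046 with quantile normalization. Depth was not known, so no counting error is given for the heights.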
